A study of Mus musculus with 3 samples.

Results

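The genes described here are 57 mouse transcription factor genes that act in neural lineages, of the POU, SOX, PAX, basic helix-loop-helix (bHLH), homeodomain and zinc finger families, with a few related factors. They were chosen by symbol, with earlier results of these data known. Of the 57, 56 were found as protein-coding genes in the GENCODE M1 annotation of the mm9 mouse genome. That annotation holds 22342 protein-coding genes on chromosomes that carry a peak. *Sox1* was not found by its symbol and has no value here. *Sox4* has 2 gene identifiers and was counted as 1 gene. Where the RNA *Dali* contacted chromatin near these genes was read from CHART-Seq, which captures an RNA with short biotinylated oligonucleotides and sequences the DNA cross-linked to it. The cells were N2A, an established mouse neuroblastoma line, left untreated. The 3 pull-downs each used 300000000 cells and 810 pmol of oligonucleotides against *Dali*. By the paper's methods they were not like replicates, since each used a different cocktail. These were a set against accessible regions of *Dali*, a set against its conserved regions, and both sets pooled. The deposited data are 1 list of 1427 peaks in which the 3 pull-downs were combined, with a position and a score for each peak, made against input DNA and against pull-downs with *lacZ* control oligonucleotides.

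The list holds no read counts and no value for a single pull-down. How deeply each library was sequenced and how far the pull-downs varied among themselves are therefore not known, and no comparison below has a test over samples. Shares of genes carry 95% Wilson intervals, which cover the number of genes only, and neighbouring genes are not independent. The distance of a gene is that from the midpoint of the nearest peak to the nearest of its protein-coding transcriptional start sites. The score is the number in the list and has no header, so its scale is not known. The mm9 build fits the list in that all 1427 peaks lie inside its chromosome ends.

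*Dali* is a long non-coding RNA transcribed downstream of *Pou3f3*, which encodes a POU factor of the developing cortex. Transcription factors of these families bind short DNA words and set cell identity in the neural tube, neural crest and brain. Many of their genes lie in large stretches with few other genes, in which distant enhancers are common. A peak between genes therefore has no assigned target, and in what follows a gene is only the reference point from which a distance is measured.

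The sequences under the peaks of the 4 genes with a peak within 10 kb are shown first, since at these peaks the listed gene itself had the nearest start site. They are the 300 bases around the peak midpoint, on the plus strand of mm9, 5′ to 3′. Where that window met an untranslated region, as at *Nkx2-2*, the longest stretch of the peak outside such regions is given instead. Capitals mark CpG dinucleotides, the target of DNA methylation in mammals.
*Sox9* chr11:112643049-112643348: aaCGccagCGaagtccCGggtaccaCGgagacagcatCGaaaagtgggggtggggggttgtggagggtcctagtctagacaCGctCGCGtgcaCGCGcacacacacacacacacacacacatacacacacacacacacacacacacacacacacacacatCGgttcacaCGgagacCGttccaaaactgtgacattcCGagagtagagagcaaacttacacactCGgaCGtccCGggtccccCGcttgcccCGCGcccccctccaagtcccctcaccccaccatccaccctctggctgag
*Myt1* chr2:181499723-181500022: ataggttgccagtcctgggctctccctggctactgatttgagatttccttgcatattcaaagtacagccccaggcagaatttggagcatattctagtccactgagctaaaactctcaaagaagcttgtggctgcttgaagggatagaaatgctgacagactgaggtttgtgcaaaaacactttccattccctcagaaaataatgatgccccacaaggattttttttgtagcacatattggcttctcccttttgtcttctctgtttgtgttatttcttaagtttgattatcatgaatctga
*Sox8* chr17:25702304-25702603: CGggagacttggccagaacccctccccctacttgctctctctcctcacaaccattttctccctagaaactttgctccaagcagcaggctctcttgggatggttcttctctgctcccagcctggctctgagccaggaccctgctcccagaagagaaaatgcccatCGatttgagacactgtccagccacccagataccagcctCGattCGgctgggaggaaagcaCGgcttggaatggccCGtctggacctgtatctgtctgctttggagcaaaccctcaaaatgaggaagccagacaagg
*Nkx2-2* chr2:147003508-147003739: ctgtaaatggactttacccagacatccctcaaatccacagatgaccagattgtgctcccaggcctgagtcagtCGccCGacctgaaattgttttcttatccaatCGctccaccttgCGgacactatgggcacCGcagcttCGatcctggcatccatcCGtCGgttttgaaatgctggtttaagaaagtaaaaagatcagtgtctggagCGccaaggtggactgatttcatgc
The *Sox9* stretch held 20 CpG dinucleotides in 300 bases, and the *Myt1* stretch of the same length held 0. The *Sox8* stretch held 6, and the *Nkx2-2* stretch held 9 in 232 bases. GC content was 60.0% at *Sox9*, 41.0% at *Myt1*, 55.7% at *Sox8* and 49.6% at *Nkx2-2*. The peaks nearest to these genes thus did not share one base composition.

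The next sequences belong to the 3 highest-scoring nearest peaks between 10 and 100 kb from a listed gene, with CpG dinucleotides again in capitals. At *Neurog2* the stretch is again the longest one outside untranslated regions.
*Pou2f2* chr7:25965732-25966031: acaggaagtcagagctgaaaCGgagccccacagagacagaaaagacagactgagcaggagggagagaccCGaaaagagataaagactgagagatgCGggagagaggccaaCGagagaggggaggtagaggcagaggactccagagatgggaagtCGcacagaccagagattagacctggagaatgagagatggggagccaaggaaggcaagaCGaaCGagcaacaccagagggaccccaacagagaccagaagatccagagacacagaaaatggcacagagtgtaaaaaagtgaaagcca
*Neurog2* chr3:127256267-127256406: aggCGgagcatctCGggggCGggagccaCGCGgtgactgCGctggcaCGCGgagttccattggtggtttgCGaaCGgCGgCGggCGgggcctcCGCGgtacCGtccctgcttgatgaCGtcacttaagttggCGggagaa
*Pou3f1* chr4:124410833-124411132: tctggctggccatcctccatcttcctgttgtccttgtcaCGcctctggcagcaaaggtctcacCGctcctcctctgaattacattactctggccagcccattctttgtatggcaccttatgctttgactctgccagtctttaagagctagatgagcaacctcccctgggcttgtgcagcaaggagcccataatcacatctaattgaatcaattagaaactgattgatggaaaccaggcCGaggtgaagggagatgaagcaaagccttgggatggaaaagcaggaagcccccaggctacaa
The *Neurog2* stretch, which lies at the start site of another gene, held 18 CpG dinucleotides in 140 bases and had a GC content of 67.9%. The *Pou2f2* stretch held 7 and the *Pou3f1* stretch held 3, each in 300 bases.

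Of the 56 genes, 1 had a peak within 1 kb of a start site (1.79%, interval 0.32 to 9.45%), against 1.88% of all protein-coding genes. Within 10 kb there were 4 genes (7.14%, interval 2.81 to 17.0%), against 3.68% of all genes. Within 100 kb there were 15 genes (26.8%, interval 17.0 to 39.6%), against 18.4% of all genes. The share of all genes lay inside the interval of the listed genes at each of the 3 distances, so no difference was detectable with this number of genes. The median distance to the nearest peak was 409 kb (interval from order statistics 247 to 565 kb), against 494 kb for all genes. A further 105 genes that carry the family names but are not listed had peaks within 1, 10 and 100 kb in 1, 4 and 20 cases (0.95%, 3.81% and 19.1%), with a median of 614 kb.

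**Figure D1:**
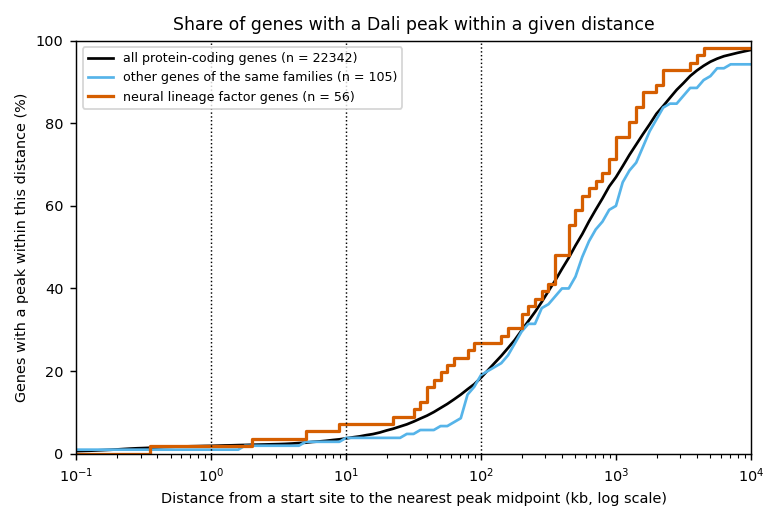
The share of genes (%) with the midpoint of a *Dali* peak within a given distance of a start site (kb, log scale), for the 56 neural lineage factor genes (orange), 105 other genes of the same families (blue) and all 22342 protein-coding genes (black), with dotted lines at 1, 10 and 100 kb. Up to 1 kb the orange line held 1 step, that of *Sox9*, and at 1 kb it stood at 1.79% against 1.88% for the black line. At 100 kb it stood at 26.8% against 18.4%.

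The distances of single genes spread over 5 orders of magnitude. Between 1 and 10 kb there were 3 genes (5.36%, against 1.81% of all genes) and between 10 and 100 kb 11 (19.6% against 14.7%). Between 100 and 500 kb there were 18 (32.1% against 31.9%), and between 500 kb and 1 Mb 10 (17.9% against 16.6%). Beyond 1 Mb lay 13 (23.2% against 33.1%). The shares of these bands carry no interval, and no difference is read from them. The nearest peak was downstream of the start site for 34 genes and upstream for 22. This split was not counted over all genes, so no lean to one side is read from it. Just inside the 100 kb limit was *Neurog2* at 79.8 kb, and just outside it *Pax3* at 141 kb. The 56 genes had 54 distinct nearest peaks, because *Olig1* and *Olig2* shared a peak, as did *Dlx1* and *Dlx2*.

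**Figure D2:**
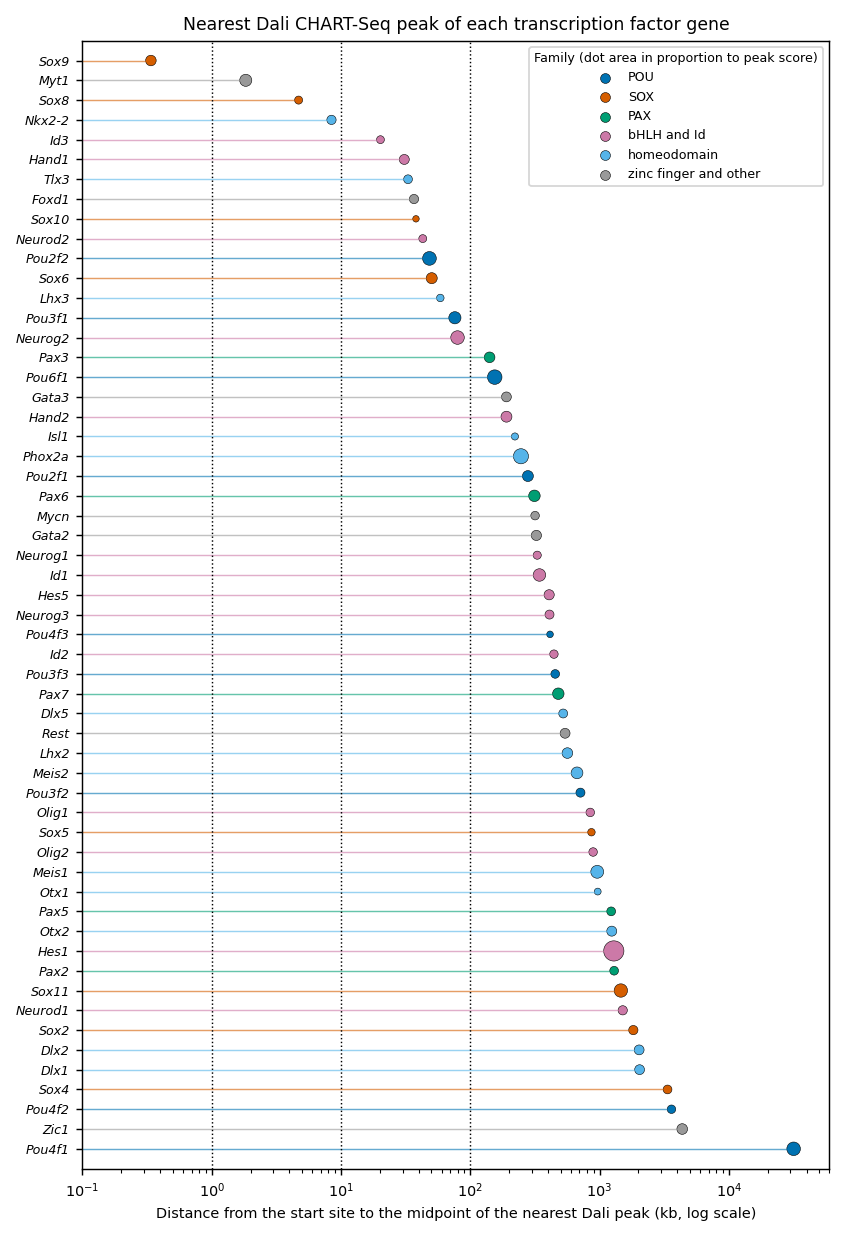
Distance from a start site to the midpoint of the nearest *Dali* peak (kb, log scale) for each of the 56 genes, coloured by family, with dot area in proportion to the peak score and dotted lines at 1, 10 and 100 kb. The genes ran from *Sox9* at 0.339 kb to *Pou4f1* at 31.7 Mb, and the highest score (78.52) belonged to the nearest peak of *Hes1* at 1.29 Mb.

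The SOX family, whose proteins share a DNA-binding HMG box, held the nearest peak of the set. Of 8 SOX genes, 1, 2 and 4 had a peak within 1, 10 and 100 kb, with a median distance of 458 kb. Over all genes the shares were 1.88%, 3.68% and 18.4%, with a median of 494 kb. The same values are the background of each family below, and with at most 14 genes in a family no difference is read. *Sox9*, a factor of neural stem cells, glia and cartilage, had a peak at chr11:112642811-112643587 with its midpoint 0.339 kb upstream of the start site and a score of 21.43. The peak, 777 bp wide, reached over the start site into the first exon of *Sox9*, and its midpoint lay in an intron of the non-coding gene *BC006965*. *Sox8*, a close relative of *Sox9* that acts in glia, had a peak at chr17:25702193-25702715, 4.71 kb downstream of the start site and between genes, with a score of 12.46. For *Sox10*, the third of these related genes and a factor of neural crest and oligodendrocytes, the nearest peak (chr15:79032663-79033291) lay 38.1 kb upstream in an intron of the non-coding gene *Gm10863*. Its score of 8.07 was the lowest among the nearest peaks of all 56 genes. *Sox10* also had the most peaks within 1 Mb of any listed gene, 13, against a median of 1 over the set. Peaks within 1 Mb were not counted for the genes outside the set. *Sox6*, which acts in neuronal and glial subtypes, had its nearest peak 50.4 kb upstream (chr7:123232454-123232833, score 23.38) over an exon of the non-coding gene *1700003G18Rik*. The other 4 SOX genes lay between 866 kb and 3.36 Mb from a peak, *Sox2* of neural stem cells among them at 1.83 Mb.

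Among the zinc finger and other factors, *Myt1* had the most peaks within 100 kb. *Myt1*, a zinc finger factor of differentiating neurons, had 4 peaks within 100 kb, and *Id3* was the only other listed gene with more than 1. How many of all genes have more than 1 such peak was not counted, so these counts have no background. The nearest *Myt1* peak (chr2:181499293-181500453) lay 1.84 kb downstream of a start site in an intron of *Myt1* and had a score of 28.01, above the list median of 19.11. The next lay 3.89 kb upstream of a start site (chr2:181493583-181494722, score 17.91). *Myt1* had the nearest start site of all genes for both of these peaks, which were 1161 and 1140 bp wide against a list median of 637 bp. The others lay 48.5 kb (score 16.0) and 82.4 kb (score 7.63) upstream and were nearer to *Oprl1* and *Tcea2*. *Foxd1*, a forkhead factor of the embryonic retina and kidney stroma, had its nearest peak 36.7 kb upstream (chr13:99087223-99087693, score 16.47). That peak lay 497 bp from a start site of *Btf3*. The other 4 genes of this group, *Gata2*, *Gata3*, *Mycn* and *Rest*, lay between 191 and 542 kb from a peak. Of the 7 zinc finger and other genes, 1 had a peak within 10 kb and 2 within 100 kb, with a median of 317 kb. *Zic1*, a zinc finger factor of the dorsal neural tube and cerebellum, was among the 3 farthest of all listed genes, at 4.36 Mb (score 21.8).

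The homeodomain genes pattern the neural tube and specify neuron types. Of 13 such genes, 1 had a peak within 10 kb and 3 within 100 kb, with a median of 565 kb. *Nkx2-2*, which specifies ventral progenitors and oligodendrocytes, had a peak at chr2:147003355-147003739 over a coding exon of its own, 8.45 kb downstream of the start site, with a score of 16.55. *Tlx3*, a selector of excitatory sensory neurons, had its nearest peak 33.0 kb downstream (chr11:33070290-33070821, score 14.89), 7.35 kb from a start site of *Npm1*. For *Lhx3*, a LIM-homeodomain factor of motor neurons, it lay 58.7 kb downstream (chr2:26003176-26003622, score 10.92) and was nearer to *Nacc2*. The other 10 homeodomain genes lay between 222 kb and 2.04 Mb from a peak.

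Several of the bHLH factors drive neuronal differentiation, though not all do, and the Id proteins, which lack a DNA-binding region, hold bHLH factors inactive. Of 14 such genes, 0 had a peak within 10 kb and 4 had one within 100 kb, with a median of 376 kb. *Id3* had its nearest peak 20.2 kb downstream (chr4:135719393-135719867, score 11.94), and this peak was 8.68 kb from a start site of *E2f2*. A second *Id3* peak lay 81.7 kb downstream with a score of 23.43, in an intron of *Asap3*. *Hand1*, a factor of the heart and the sympathetic lineage, had its nearest peak 30.9 kb downstream (chr11:57614365-57615118, score 19.18), 398 bp from a start site of *Sap30l*. *Neurod2*, a factor of cortical excitatory neurons, had a peak 42.9 kb upstream (chr11:98233773-98234042, score 12.13) in an intron of *Stard3*. *Neurog2*, which commits progenitors to a neuronal fate, had a peak 79.8 kb upstream (chr3:127256029-127256537) with a score of 35.15. The midpoint of that peak was 17 bp from a start site of *Larp7*. The other 10 genes lay between 191 kb and 1.51 Mb. Chosen after its value was seen, *Hes1*, a repressor downstream of Notch, had a nearest peak of score 78.52 at 1.29 Mb, the highest score among the nearest peaks of the set.

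The POU genes include *Pou3f3*, the neighbour of *Dali*. Of 9 POU genes, 0 had a peak within 10 kb and 2 had one within 100 kb, with a median of 414 kb. *Pou2f2*, best known from B cells, had its nearest peak 48.4 kb upstream (chr7:25964946-25966818), between genes. It was 1873 bp wide and had the highest score, 36.21, of the nearest peaks within 100 kb. *Pou3f1*, a factor of early neural fate and of Schwann cells, had a peak 76.1 kb downstream (chr4:124410641-124411326, score 28.57), 8.11 kb from a start site of *Inpp5b*. For *Pou3f3* the nearest peak lay 454 kb upstream of its start site (chr1:42299078-42299941, score 14.45), and it was the 1 peak within 1 Mb. The list thus held no peak at the neighbouring *Dali* locus, where the paper reports enrichment in its capture by quantitative PCR. Absence from the list therefore does not show absence of contact. *Pou4f2* of retinal ganglion cells was 3.60 Mb from a peak (score 13.82). *Pou4f1* of sensory neurons was 31.7 Mb from one (score 35.31), the farthest of all listed genes, and 0.251% of all protein-coding genes lay farther. Chromosome 14, where it lies, had 32 peaks and none in its last 52.1 Mb, a stretch with 142 protein-coding genes. The other 4 POU genes lay between 155 and 712 kb from a peak.

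The PAX genes encode paired-domain factors of neural tube and neural crest. Of the 5, 0 had a peak within 100 kb, against 18.4% of all genes. Their median was 480 kb, against 494 kb over all genes. *Pax3*, a factor of neural crest and dorsal neural tube, was nearest at 141 kb (chr1:78334510-78335304, score 21.86), with the peak in an intron of *Sgpp2*. *Pax6*, which directs eye and cortex formation, had 21 annotated start sites, and the nearest peak lay 314 kb downstream of the last of them (chr2:105843151-105843612, score 25.47). This peak was 325 bp from a start site of *Dnajc24*. The other 3 PAX genes lay between 480 kb and 1.30 Mb.

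The study's primer list, in its section on CHART peaks, holds a pair for *Pax6* and a pair for *Pou3f3*, the latter also listed for the *Pou3f3* transcript. Their sites were located in mm9 to set them against the peak list, and no PCR measurement was analysed here. The *Pax6* pair ctcatttcccgctctggtt and cattagcgaagcctgacctc enclosed chr2:105515648-105515725, which is 78 bp long with its midpoint 2 bp from a *Pax6* start site. The *Pou3f3* pair tggctctgggtacgctctatg and ggcttgagcttgcacatgttc enclosed chr1:42755015-42755114, with its midpoint 1.07 kb downstream of the start site. Neither stretch overlapped a peak, and the gap to the closest one was 327 kb at *Pax6* and 455 kb at *Pou3f3*.

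For 11 of the 15 genes with a peak within 100 kb, another gene had the start site nearest to that peak. The exceptions were *Sox9*, *Myt1*, *Sox8* and *Nkx2-2*. The listed gene was thus nearest in 26.7% of cases, and over all genes with a peak within 100 kb this was so for 28.1%. Of the 15 nearest peaks, the midpoint of 7 lay between genes and that of 3 in exons of non-coding transcripts. Another 2 lay in introns of non-coding genes, 2 in introns of protein-coding genes and 1 in a coding exon. The 7 between genes include the *Neurog2* peak, 17 bp from a start site of *Larp7*. These locations were not counted over the whole list, so no preference is read from them. Over all distances, 16 of the 54 distinct nearest peaks (29.6%) lay within 1 kb of a protein-coding start site, against 25.2% of the whole list. In 15 of these 16 the start site belonged to a gene that is not listed, *Sox9* being the exception. The 15 nearest peaks within 100 kb had scores from 8.07 to 36.21 with a median of 16.55, against 19.11 over the list, and 7 of them were above that value.

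**Figure D3:**
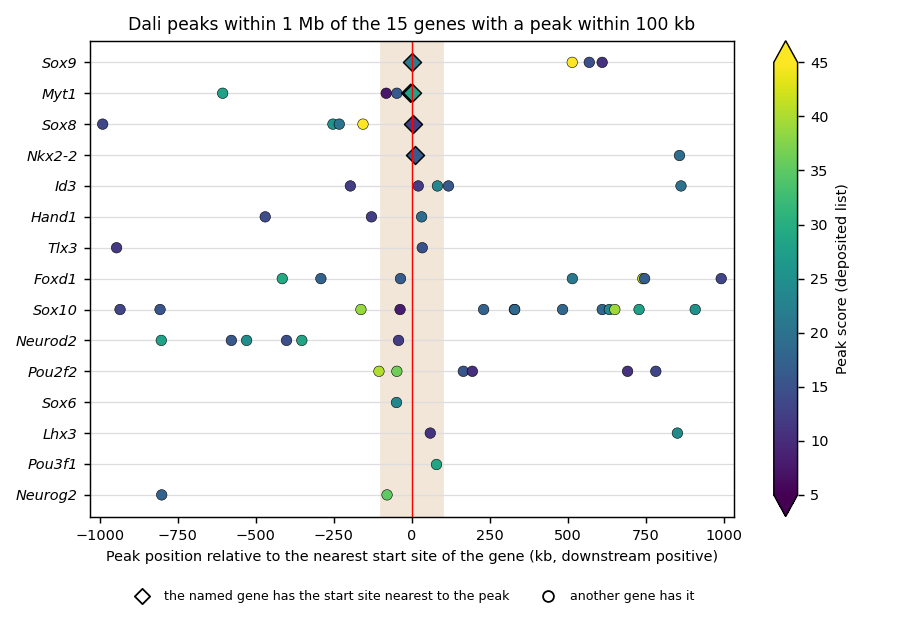
Positions of all *Dali* peaks within 1 Mb of the 15 genes with a peak within 100 kb, in kb from the nearest start site of the gene (downstream positive), coloured by score, with the 100 kb range shaded and scores above 45 drawn in the end colour. Diamonds are peaks for which the named gene had the nearest start site, and they occur at *Sox9*, *Myt1* (both peaks next to its start sites, overlapping in the drawing), *Sox8* and *Nkx2-2*.

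Proximity was also counted by a regulatory region for each gene, which begins 5 kb before its first start site, ends 1 kb after it, and is extended by up to 1 Mb until it meets the region of the next gene. By this rule 10 of the 56 genes (17.9%, interval 10.0 to 29.8%) held a peak, against 9.12% of all genes. They were *Sox8*, *Sox9*, *Sox10*, *Myt1*, *Nkx2-2*, *Tlx3*, *Lhx3*, *Meis2*, *Id3* and *Hand2*. The rule reaches far, as *Meis2* had no peak nearer than 670 kb and *Hand2* none nearer than 191 kb. The interval of the listed genes lay just above the share of all genes. It also did so with the extension limited to 100 kb (8 genes, 14.3%, interval 7.42 to 25.7%, against 7.14%), but not under the other 2 settings. With scores of at least 10 the count was 9 genes (16.1%, interval 8.69 to 27.8%), against 8.71% of all genes, which lay inside the interval. Without the extension it was 2 genes, *Sox9* and *Myt1* (3.57%, interval 0.98 to 12.1%), against 2.16%. The listed genes were chosen with earlier results of these data known, so these intervals are no test of a difference. The start sites of the listed genes were also farther from those of other genes, with a median of 43.9 kb against 19.97 kb over all genes, and regions extended by this rule are longer where genes are sparse. The part of this spacing in the count was not tested.

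CpG-rich promoters were more frequent among the listed genes than among all genes. A promoter was called CpG-rich where the 300 bases from 250 before to 50 after the first start site had a GC content of at least 50% and an observed to expected CpG ratio of at least 0.6. This held for 36 of the 56 listed genes (64.3%) and for 42.6% of all genes. Among genes with such a promoter, 6 of 36 listed genes had a peak within 100 kb (16.7%, interval 7.87 to 31.9%). The share of all such genes, 22.9%, was higher but lay inside that interval, so no difference was detectable in this class. Among genes without it, a split added after the values were seen, the count was 9 of 20 (45%, interval 25.8 to 65.8%), against 15.1%. The 9 genes were *Sox9*, *Myt1*, *Id3*, *Hand1*, *Sox10*, *Pou2f2*, *Lhx3*, *Neurog2* and *Sox6*. Of these, *Id3* and *Sox6* fell short of the GC limit. The CpG ratio was just below its limit for *Sox9* (0.583), *Neurog2* (0.570) and *Hand1* (0.560). The median distances ran the same way, at 467 kb for listed genes with a CpG-rich promoter (361 kb for all such genes) and 166 kb for those without (610 kb).

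**Figure D4:**
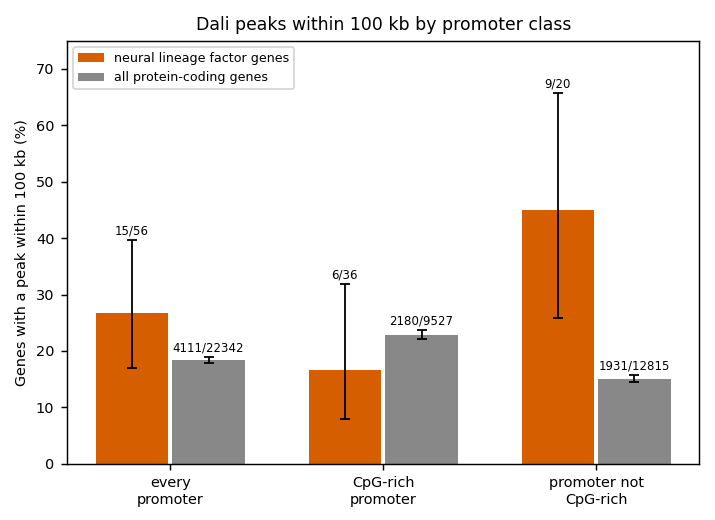
Percentage of genes with a *Dali* peak within 100 kb among the neural lineage factor genes (orange) and all protein-coding genes (grey), for every promoter and for promoters that were and were not CpG-rich, with bars from 0, the counts above the bars and 95% Wilson intervals over genes as error bars. The listed genes stood below all genes where the promoter was CpG-rich (16.7% against 22.9%) and above them where it was not (45% against 15.1%). In the CpG-rich class the share of all genes lay inside the interval of the listed genes.

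The 19 peaks within 100 kb of a listed gene were read for base composition and for short words. Their central 500 bp had a median GC content of 51.2% (range 41.2 to 61.2%), and so did those of all 1427 peaks. Of the 19, 2 (10.5%) were CpG-rich, those of *Sox9* and *Neurog2*, against 16.4% of the list. Words bound by the families themselves were searched on both strands of the same window. The octamer ATGCAAAT of POU factors was found in 0 of the 19 peaks and in 3.15% of the list. By motif discovery the paper reports a binding motif of POU III factors in a larger share of the same list. An exact octamer is a narrower measure than such a motif, so its share does not count all POU sites. The SOX word ACAATG was found in 3 (15.8%), those of *Myt1*, *Lhx3* and *Nkx2-2*, against 20.8%. The E-box CAGCTG of bHLH factors was found in 6 (31.6%), with 3 copies in the *Sox10* peak, against 32.6%. The homeodomain word TAATTA was found in 1, that of *Lhx3* (5.26%), against 11.4%. Each of these counts was 6 or fewer, and no test was run on them.

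A match to the CTCF consensus, the site of an insulator protein, with at most 1 mismatch was found in 3 of the 19 peaks (15.8%), against 16.6% of the list. The 3 matches are printed to show the word in its place, in capitals with 20 bases to either side, on the strand that carries the match.
*Id3* chr4:135719568-135719620 (plus strand): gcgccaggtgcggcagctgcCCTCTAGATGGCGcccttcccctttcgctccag
*Neurod2* chr11:98233899-98233951 (minus strand): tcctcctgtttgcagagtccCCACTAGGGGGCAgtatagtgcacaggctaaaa
*Tlx3* chr11:33070686-33070738 (plus strand): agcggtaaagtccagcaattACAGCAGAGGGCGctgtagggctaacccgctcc
The *Neurod2* match had 0 mismatches and lay 17 bp from the peak midpoint. The *Id3* match had 1 mismatch at 37 bp and the *Tlx3* match 1 mismatch at 156 bp. A match of this kind describes the sequence and does not show that the protein was bound. By motif discovery the paper reports a CTCF-like motif in a smaller share of the same list. A word with 1 mismatch allowed is a different measure.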

How the data were processed

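The authors mapped 50 bp paired-end reads of the 3 *Dali* pull-downs to mm9 with bowtie and called peaks with MACS2 against input and against *lacZ* pull-downs. They deposited the peaks found against both, with 1 score per peak. The deposited score has no header, and its meaning is not given in the sources used here. It was used only to describe and filter peaks.

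Start sites of protein-coding transcripts came from GENCODE M1. Each listed gene was paired with the peak whose midpoint was nearest to any of its start sites, and the same was done for all 22342 protein-coding genes. Named by a rule were all genes with a peak within 100 kb, the 3 farthest, *Pou3f3* and *Pax6*. *Sox2*, *Pax3* and *Hes1* were given with their distances outside this rule, and some further genes were named without a distance of their own. Genes, word lists and alternatives were chosen with earlier results of these data known. No test was run, since the list has no values per pull-down. Alternatives changed the point of the peak, the start sites, the score filter and the genes compared. The functions were tested on simulated data, where 200 of 200 planted nearest peaks and 200 of 200 planted words were recovered. Tools were pysam 0.24.0, pandas 2.3.3, numpy 2.4.6, scipy 1.17.1 and matplotlib 3.10.9 under Python 3.11.15. Expression, methylation and PCR measurements were not analysed here.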

Additional observations from a re-analysis of the deposited data

How the results depend on the processing

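Measuring to the nearest edge of a peak, using the first start site or the start sites of all transcripts, keeping scores of at least 10, counting each shared peak once, or leaving out genes with another start site within 10 kb moved no share or median beyond the interval of its main value. Over 10 alternatives, the share of listed genes with a peak within 100 kb exceeded that of all genes in 9 and fell below it in 1, that for CpG-rich promoters. The alternatives reuse the same genes and peaks, so this tally is no separate evidence of a difference. Of the 9, 1 is the split by promoters that were not CpG-rich, chosen after seeing the data. The share within 1 kb was above that of all genes in 4 alternatives and below it in 6.

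With peaks at or above the median score, the share within 100 kb was 14.3% (10.5% of all genes) and the median distance 853 kb (1003 kb). With CpG-rich promoters, the share was 0% within 1 kb (2.96%) and 16.7% within 100 kb (22.9%), and the median was 467 kb against 361 kb. With promoters that were not CpG-rich, chosen after seeing the data, the share within 100 kb was 45% (15.1%) and the median 166 kb (610 kb). Among the 25 genes with a single start site, the share was 0% within 1 kb (1.12%) and 0% within 10 kb (2.68%). Without extension, the regulatory regions of 2 genes held a peak. The causes were not tested.

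No paired analysis was possible because the list combines the 3 pull-downs, and for the same reason no pull-down was left out. Depth is unknown, and the list holds called peaks only.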
